A study of Mus musculus with 20 samples.

Results

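The endothelium of uninjured adult mouse sciatic nerve was profiled in 5 libraries of polyA RNA, which are the intact group among the 14 libraries of a Tomato reporter experiment and the 20 libraries of the whole study. Members were taken by their label alone, that is, every library of the Tomato count table whose condition is given as intact, and no measured value entered the choice. Cells came from pooled uninjured sciatic nerves of mice labelled Plxnd1 WT that carried the reporter spelled Chd5CreER/R26-TdTomato in the labels. In that reporter, the Cre recombinase under the endothelial promoter Cdh5(PAC) removes a stop cassette at Rosa26, so that the red protein marks the cells in which the recombinase acted and their descendants. Nerves were digested with a mixture of proteases for 30 min at 37 C, and red cells negative for the leukocyte protein CD45 were sorted. The labels do not say which animals, of what age or sex, went into which library, so the spread between libraries may be partly technical. Replicates 1, 2 and 3 are labelled batch 1292, and replicates 4 and 5 batch 1133.

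Vessels inside a nerve form the inner part of the blood-nerve barrier. Their endothelial cells are joined by tight junctions, carry few routes for unselective transport and feed the nerve through membrane carriers, much as brain endothelium does. The outer part of the barrier is the perineurium, a sleeve of flattened cells with tight junctions of their own around each fascicle. The epineurium outside it holds larger, leakier vessels together with fibroblasts. A whole nerve taken for sorting contains all of these layers.

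Total counts assigned to genes were 27336017, 20027327, 27029547, 31434848 and 23299449 in replicates 1 to 5. Levels are given as CPM, counts scaled to a common library total and by the trimmed mean of M-values (TMM) over these 5 libraries. Genes are compared with each other as CPM per kb of the deposited gene length, except where CPM is named. Orders, thresholds and sums in CPM are not corrected for length, so sums and their ratios also depend on the number and length of the genes listed. Where 5 values follow each other they are replicates 1 to 5, and ± is the SD over the 5 libraries. Orders of the libraries are described gene by gene. The share of all genes with the same order was counted only for the pair of replicates 1 and 5, given with the clock genes. A gene was taken as expressed at 1 CPM or more in each of the 5 libraries. That held for 12987 of 55376 genes, with a median of 7.87 CPM per kb and 27.5 CPM. Replicate 5 stood apart at the low end: 20229 genes reached 1 CPM there, against 14040 to 14389 in the other 4 libraries, and 5300 genes reached it in replicate 5 alone (74 to 122 in each other library alone). Its TMM factor was 1.16, against 0.940 to 0.981 elsewhere. Genes that reached 1 CPM in that library alone are not counted as expressed. Pearson's r of log2 CPM between pairs of libraries, across genes, was 0.926 to 0.976.

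Markers of endothelium and markers of other nerve cells were both abundant. All 28 genes of the pan-endothelial list were expressed, and their summed level was 20093, 24253, 16895, 13510.2 and 10257 CPM. Summed fibroblast markers (22 genes) came to 14793, 13562, 19666, 23270.1 and 17535 CPM and summed perineurial markers (14 genes) to 5554, 4508, 6427, 7166 and 5591 CPM. The endothelial sum exceeded the fibroblast sum in replicates 1 and 2, by 1.36 and 1.79 times, and lay below it in replicates 3, 4 and 5, at 0.859, 0.581 and 0.585 times. Slc2a1, a glucose carrier that endothelium also uses, is on the perineurial list and made up 2258 to 2829 CPM of its sum, and Dcn alone made up 5882 to 14292 CPM of the fibroblast sum. Endothelial over perineurial summed level was 3.62, 5.38, 2.63, 1.89 and 1.83. Replicate 2 was highest on both ratios, and replicates 4 and 5 were lowest on both. The median fibroblast marker did not share that order, as given with the spread between libraries. In sorted bulk RNA, fewer cells of a type and less RNA per cell cannot be told apart.

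**Figure D1:**
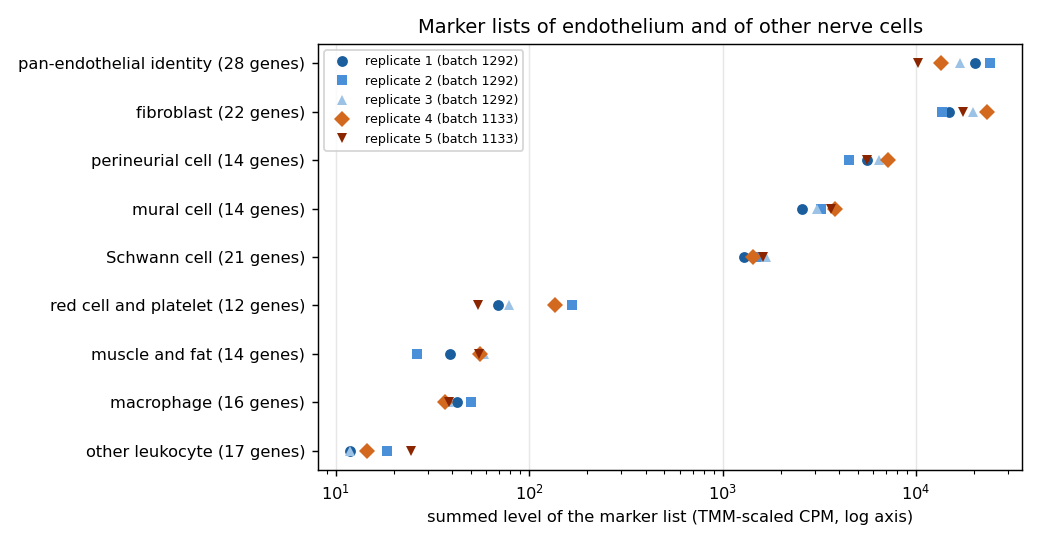
Summed TMM-scaled CPM (log axis) of the marker list of each cell type, with 1 symbol for each of the 5 intact libraries and the number of genes of the list in brackets. Endothelial, fibroblast, perineurial, mural and Schwann lists lie above 1000 CPM in every library, and the leukocyte lists lie at 50 CPM or below.

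Defining markers of those other cells were present at clear levels. Dcn, the small collagen-binding proteoglycan of fibroblasts, stood at 8580.4, 5882, 10929.9, 14292 and 10009 CPM, lowest in replicate 2 and highest in replicate 4. Cldn1, the tight-junction claudin of perineurial cells, had 1234, 931, 1422, 1921 and 1491 CPM, and Lypd2, another perineurial marker, 229, 135, 347, 601 and 221 CPM. Both were lowest in replicate 2 and highest in replicate 4, like Dcn. The fibroblast receptor gene Pdgfra had 58.2, 36.2, 68.6, 41.02 and 45.3 CPM and the collagen gene Col1a1 526, 839.6, 673, 659 and 591 CPM. Among mural markers, the pericyte gene Rgs5 was at 723, 1186, 839, 981 and 639 CPM and Pdgfrb, the receptor that recruits pericytes, at 169, 257, 212, 228 and 257 CPM. The smooth muscle myosin Myh11 had 26.4, 39.1, 35.5, 31.3 and 32.2 CPM. Mural markers summed to 2589 to 3797 CPM. Of 21 Schwann cell markers 18 were expressed, with the myelin-associated genes Mal, Pmp22 and Mbp at 527, 513, 377, 426 and 407, 333, 424, 479.8, 459 and 465 and 86.0, 154.4, 263, 137 and 305 CPM. The lineage factor Sox10 was under 3 CPM in all 5 libraries, and Gfap and Foxd3 were not expressed either. The Schwann list summed to 1296 to 1668 CPM. The part of these cells in the results that follow was not tested.

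Leukocyte RNA was low in these cells, which were gated as CD45-negative. Of 16 macrophage markers 3 were expressed, and the list summed to 42.6, 49.8, 38.4, 36.8 and 38.3 CPM. Ptprc, which encodes CD45, was at 0.0373, 0.616, 0, 0.609 and 3.59 CPM, with 0 counts in replicate 3. Of 17 markers of other leukocytes 2 were expressed, with a sum of 11.9, 18.4, 11.9, 14.6 and 24.6 CPM, and the neutrophil gene S100a8 had no count in 4 of 5 libraries. A count of 0 allows up to 3 counts, which is 0.0954 to 0.150 CPM per library before scaling. Of 14 muscle and fat genes 2 were expressed, the troponin gene Tnnt3 at 34.1, 17.1, 54.0, 51.1 and 29.7 CPM and the lipid droplet gene Plin4 at 3.58, 4.67, 3.31, 2.20 and 3.48 CPM, and the list summed to 38.8, 26.4, 58.7, 55.7 and 55.1 CPM. The defining markers Acta1, Ckm, Adipoq and Plin1 stayed under 1 CPM in every library. Haemoglobin RNA was small and uneven, with Hbb-bs at 33.8, 83.9, 42.2, 69.1 and 22.5 CPM, highest in replicates 2 and 4. Hbb-bs and its near-identical neighbour Hbb-bt can share reads. The X-inactivation RNA Xist was at 289.6 and 124 CPM in replicates 1 and 2 and under 2 CPM in the others, whereas the Y-linked Ddx3y was detected in all 5 at 17.97, 55.8, 138, 78.996 and 67.6 CPM.

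By CPM, the order of named nuclear genes began with Dcn at 9939 ± 3092 (chr10:97479609-97518143 of mm10 as deposited, plus strand), the actin gene Actb at 6966 ± 1046 and the AP-1 subunit gene Fos at 6144 ± 1476. Igfbp6, a secreted binding protein with a preference for insulin-like growth factor 2, followed at 5609 ± 2764 (chr15:102144362-102149511, plus strand). After it came Smoc2, a calcium-binding matrix glycoprotein, at 3864 ± 889 and Cldn5 at 3778 ± 1116. Sfrp5, a secreted inhibitor of Wnt ligands, had 3089, 2093, 4481, 5457 and 3607 CPM. Igfbp6 had 4094, 3063, 5711, 10227 and 4950.2 CPM. Both were lowest in replicate 2 and highest in replicate 4, as were Dcn, Cldn1 and Lypd2 above. The fibroblast markers Pdgfra and Col1a1 did not have that order, and its share over all genes was not counted.

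Division by gene length moved short transcripts up. Dcn at 5126 ± 1595 and Igfbp6 at 5044 ± 2485 CPM per kb stayed on top, and next among named genes were Actb, the protease inhibitor gene Cst3 (3596 ± 956), B2m, the light chain of class I antigen-presenting molecules (3056 ± 640.0), Fos (2915 ± 700.1) and the actin-binding Tmsb4x (2717 ± 649.9). Cldn5 held rank 9 of all expressed nuclear genes, gene models without a name included. Ifitm3, an antiviral membrane protein, reached 2175 ± 567 CPM per kb, and Bsg, the basigin chaperone of lactate carriers, 1501 ± 373. Bsg was even in the first 4 libraries and low in replicate 5 (2804, 2849.7, 2789.6, 2778 and 1403 CPM). Other genes among the first 15 by CPM were the ferritin chain Fth1, the elongation factor Eef1a1, the caveolin Cav1, the matrix protein Sparc, the membrane protein Itm2b and the actin-severing Gsn. Named genes among the first 15 per kb also included Igfbp7, a vascular matrix protein, and the ribosomal gene Rplp1.

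**Figure D2:**
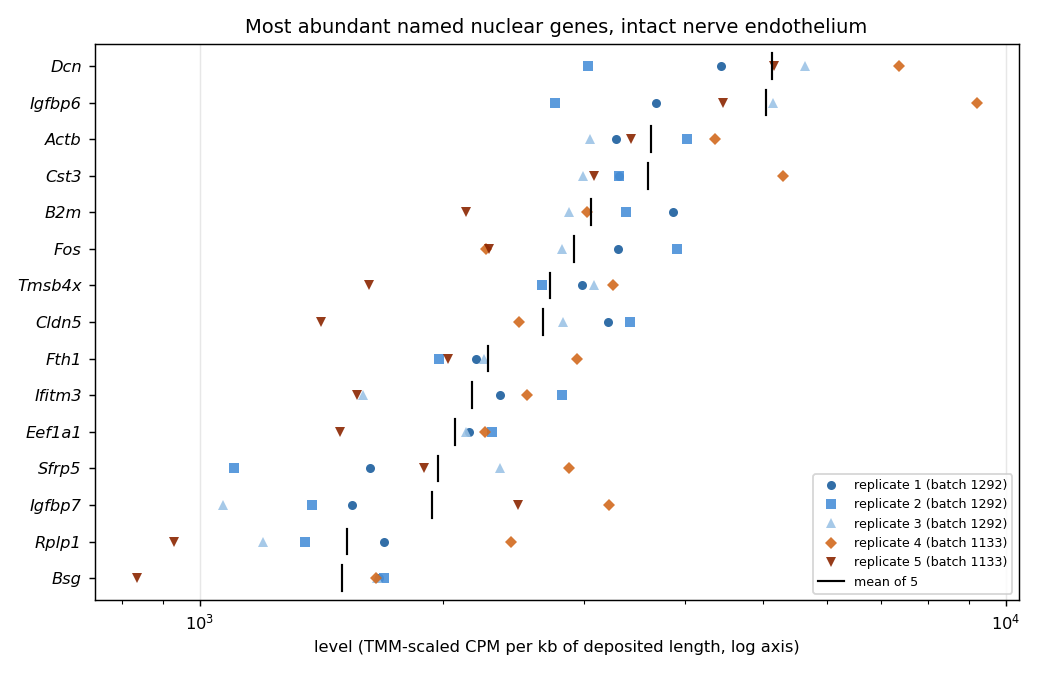
Level of the 15 named nuclear genes with the highest mean, in TMM-scaled CPM per kb of deposited gene length (log axis), with 1 symbol per intact library and a black bar at the mean. Dcn and Igfbp6 are lowest in replicate 2 and highest in replicate 4, and Cldn5 runs from 1999.5 to 4838 CPM before length division, lowest in replicate 5.

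The 10 most abundant genes held 6.75% ± 0.904 of counts, the first 100 held 22.2% ± 0.869 and the first 1000 held 53.7% ± 1.27. Mitochondrial-genome genes took 2.64% to 3.48% of counts per library. Both of 2 gene models without a name were also high: Gm42418 at 7269 ± 2522 CPM, and Gm10800, which was at 197, 818, 463, 219.4 and 6920.5 CPM and so rested on replicate 5. Cytosolic ribosomal protein genes summed to 32222, 29066, 25784, 38195 and 17798 CPM, lowest in replicate 5 and highest in replicate 4.

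Endothelial identity genes were abundant, 26 of 28 above 100 CPM and 27 of 28 above the median of expressed genes per kb. The cell adhesion molecule Pecam1 was at 1552, 2080.1, 1545, 1029 and 825 CPM and Cdh5, which encodes VE-cadherin of adherens junctions and drives the reporter, at 373, 386, 295, 179.6 and 194 CPM (chr8:104101625-104144511, plus strand). Both were highest in replicate 2 and lower in replicates 4 and 5 than in replicates 1, 2 and 3. Esam, an endothelial adhesion molecule, ranked 63 per kb at 692 ± 186, the sialomucin Cd34 ranked 226 at 271 ± 98.6 and the BMP co-receptor Eng ranked 235 at 266 ± 96.4. Per kb, Cldn5 exceeded Esam in 5 of 5 libraries and Esam exceeded Plvap in 5 of 5, whereas Ecscr, Eng and Egfl7, neighbours in the order at 269, 266 and 265 CPM per kb, changed places between libraries. The least abundant member was Tal1, a factor shared with blood lineages, at 4.81 ± 1.73 CPM per kb. Erg, the ETS factor that maintains endothelial fate, was modest at 67.3, 45.7, 47.3, 40.5 and 49.8 CPM and highest in replicate 1.

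Tight-junction RNA was dominated by Cldn5, the claudin that seals brain and nerve endothelium (chr16:18776847-18778262, plus strand). Its level was 4540.1, 4838, 3992, 3521 and 1999.5 CPM. Of 25 claudin genes 8 were expressed, and after Cldn5 and Cldn1 the next per kb was Cldn15 at 10.7 ± 3.43. Among partners, F11r (junctional adhesion molecule A) was at 263 ± 31.4 CPM per kb, Jam2 at 87.8 ± 23.8, the scaffold Tjp1 (ZO-1) at 43.7 ± 16.3 and occludin (Ocln) at 17.7 ± 4.69. Ocln was lowest in replicate 2 and highest in replicate 4 (69.5, 43.5, 88.4, 94.1 and 77.1 CPM), as Cldn1 and Lypd2 were (with library size alone replicate 5 was highest), whereas Tjp1 was lower in replicates 4 and 5 than in the other 3 (438, 301, 419, 198 and 195 CPM). Lsr, a protein of tricellular contacts, had 41.3 ± 11.6 CPM per kb. Marveld3 and Tjp3 were the 2 members of the 28-gene junction list that were not expressed. Among connexins, which form gap junctions, Gja1 led at 181 ± 24.7 CPM per kb, ahead of the arterial Gja4 at 52.2 ± 14.9.

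Caveolar coat genes were among the highest in the profile. Cav1, the main coat protein of caveolae, stood at 3437, 3308, 4282, 4053 and 3049.6 CPM, with an SD of 14.3% of the mean. Its coat partners Cavin1 and Cavin2 had 769 ± 140.0 and 347 ± 86.7 CPM per kb, and Cav2 188 ± 45.004. Cav1 exceeded Cavin1 in 5 of 5 libraries. Plvap, the protein of the diaphragms that close fenestrae and caveolae in leaky vessels, was far less even at 1023, 1914, 817, 538 and 333 CPM (chr8:71497765-71511752, minus strand). Replicate 2 was highest and replicate 5 lowest for Plvap. Mfsd2a, the carrier of lysophosphatidylcholine that restrains transcytosis in brain endothelium, was at 456, 423, 299, 383 and 372 CPM. The neonatal Fc receptor Fcgrt and the lipoprotein receptor Scarb1 had 285 ± 38.3 and 304 ± 112 CPM per kb. The transferrin receptor Tfrc, abundant in brain endothelium, was low at 23.2, 19.8, 22.8, 12.4 and 18.1 CPM.

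Transporters of the barrier were led by the glucose carrier Slc2a1 (chr4:119108711-119137983, plus strand). It had 2722, 2464, 2829, 2555 and 2258 CPM, a spread of 8.70% of the mean, and was also on the perineurial list, since both layers of the barrier use it. The water channel Aqp1 was second at 1869.8, 2982, 1215, 909 and 806 CPM, highest in replicate 2 and lowest in replicate 5 (in replicate 4 with library size alone). Of 32 listed transporters 29 were expressed, 16 above 100 CPM. The efflux pumps Abcg2 and Abcb1a, which return drugs to the blood, were at 1293, 1348, 1091, 959 and 765 and 503, 417, 507, 284 and 263 CPM. Abcb1a was lower in replicates 4 and 5 than in replicates 1, 2 and 3, without overlap, an order whose share over all genes was not counted. The organic anion carrier Slco1a4 had 227 ± 53.2 CPM per kb and the lactate carrier Slc16a1 201 ± 60.1. Their order per kb held in 3 of 5 libraries. Slc3a2, the heavy chain shared by amino acid exchangers, had 333 ± 97.0 CPM per kb and its light chain Slc7a5 24.2 ± 4.23.

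Carriers known from brain vessels were not all present. Slc22a8, an organic anion exchanger, stayed at 1.12, 1.95, 0.809, 1.05 and 2.88 CPM, and the glutamine carriers Slc38a3 and Slc38a5 at 0.85 and 0.511 CPM on average (0.518 and 0.149 without replicate 5). None of these 3 reached 1 CPM in each library. The thyroid hormone carrier Slco1c1 was low at 34.4, 15.5, 23.1, 24.4 and 16.2 CPM. Across the solute carrier family 211 of 362 members were expressed, with the mitochondrial ADP/ATP carrier Slc25a4 second to Slc2a1 at 373 ± 54.1 CPM per kb. Of 15 Slco genes 5 were expressed, of 50 Abc genes 33, and of 11 aquaporins 3, with Aqp7 and Aqp11 at 29.2 ± 9.85 and 14.5 ± 3.002 CPM per kb. Car4, the carbonic anhydrase anchored on capillary endothelium, was far above its 15 relatives at 446 ± 122 CPM per kb, with Car13 next at 16.9 ± 5.99.

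**Figure D3:**
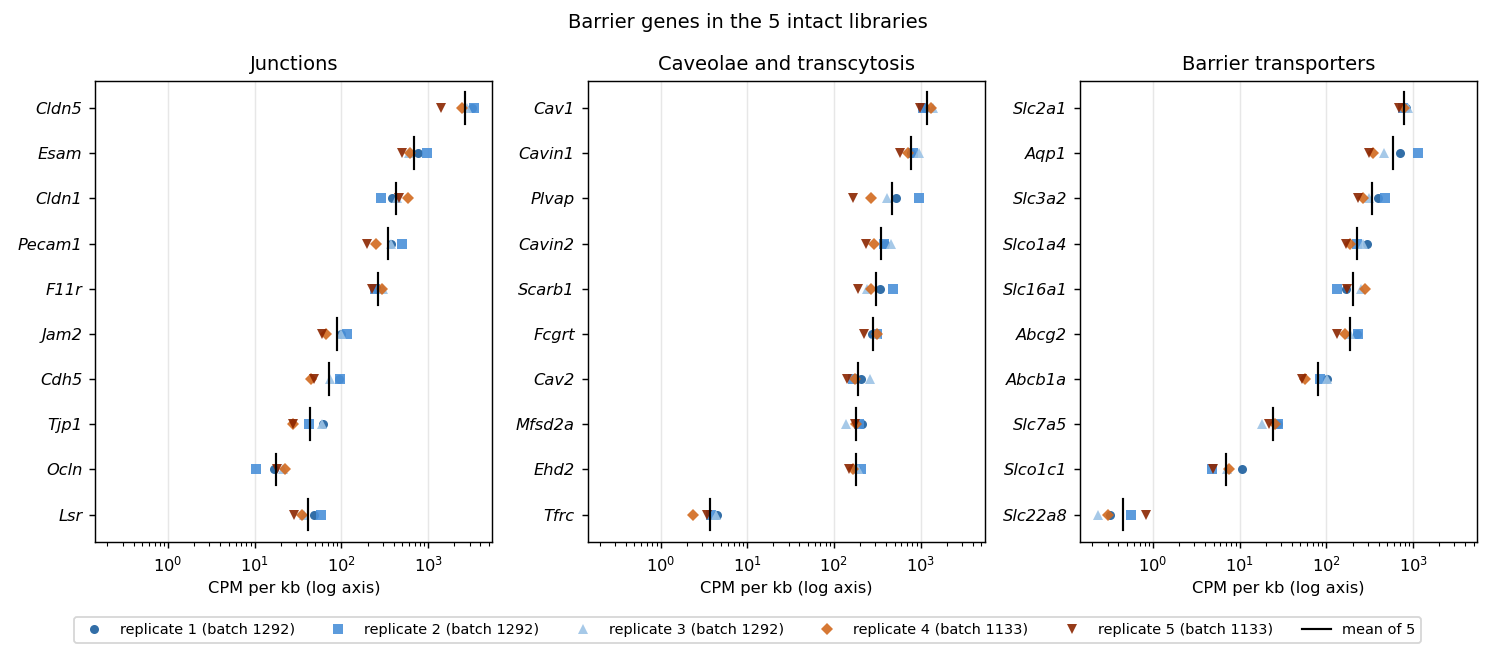
Level of junction, caveolar and transporter genes in CPM per kb (log axis, shared by the 3 panels), with 1 symbol per intact library and a black bar at the mean. Slc2a1 and Cav1 lie close together over libraries, Plvap and Aqp1 spread widely with replicate 2 highest, and Slc22a8 lies under 1 CPM per kb.

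All 38 growth factor and guidance receptors of the list were expressed, 13 above 100 CPM. The vascular endothelial growth factor receptors Flt1 and Kdr stood at 778, 789.6, 621, 445 and 429 and 325, 449, 406, 156 and 184 CPM. Per kb, Flt1, which acts mainly as a trap for the ligand, and Kdr, the signalling receptor, were close at 55.9 ± 15.8 and 51.3 ± 22.01, with Flt1 higher in replicates 1, 4 and 5 and Kdr in replicates 2 and 3. Their co-receptor Nrp1 led the list per kb at 99.4 ± 18.7. Vegfa itself was not expressed, at 0.597, 0.975, 0.77, 0.711 and 0.259 CPM. The angiopoietin receptor Tek and its partner Tie1 had 71.1 ± 24.1 and 86.6 ± 31.2 CPM per kb, and the phosphatase Ptprb, which restrains Tek, 847, 897, 747, 268 and 295 CPM. For Kdr, Tek, Tie1, Flt1 and Ptprb alike, replicates 4 and 5 were below replicates 1, 2 and 3. How many of all genes share that order was not counted.

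Robo4, a receptor of the Slit family in endothelium, was at 85.3 ± 18.5 CPM per kb. Plxnd1, the semaphorin receptor that the wider study deletes in another experiment, was at 129, 138, 101, 67.6 and 62.9 CPM. It was second among 9 plexins per kb, at 14.4 ± 4.99, below Plxnb2 at 27.8 ± 3.55. Its ligand Sema3e was among the 5 of 20 semaphorins that were not expressed, and Sema3b was the highest of the family at 30.3 ± 9.21 CPM per kb. Ephb4, the venous ephrin receptor, led the Eph family at 44.98 ± 11.3 CPM per kb and Efna1 the ephrins at 137 ± 40.3. The receptor tyrosine kinase Axl had 342, 268, 480.4, 431 and 472 CPM and its ligand Gas6 2144, 1717, 2673, 2439 and 2394 CPM. Both were lowest in replicate 2. Pdgfrb and Ddr2, known from mural cells and fibroblasts, were on this list too, at 41.01 ± 6.68 and 18.5 ± 3.23 CPM per kb, beside the mural and fibroblast sums given above.

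Receptors of the TGF-beta and BMP family were all expressed, 12 of 12. Acvrl1, the type I receptor for BMP9 in endothelium, was at 429.7, 470.2, 364, 365.6 and 276 CPM and the type II receptors Tgfbr2 and Bmpr2 at 541, 561, 557, 382 and 439.7 and 123, 107, 103, 65.8 and 67.2 CPM. Acvr2b was the lowest, at 1.04 ± 0.292 CPM per kb. Id1 and Id3, transcriptional targets of BMP signalling, reached 589.8, 481, 354, 515 and 293 and 1328, 1337, 948, 1329.9 and 942 CPM. Id3 ranked 40 per kb.

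Notch and Wnt components were present at middle levels. The ligand Dll4 was at 256, 269.6, 206, 148 and 148 CPM, and Jag1 at 139, 127, 136, 104 and 135 CPM. Notch1 had 139, 147, 88.9, 145 and 146 CPM and the endothelial Notch4 47.01, 35.1, 25.7, 45.6 and 46.9 CPM. Their targets Hes1 and Hey1 stood at 181 ± 69.4 and 37.3 ± 12.1 CPM per kb. For Wnt, the receptor Fzd4 and its co-receptor Tspan12, which serve barrier formation in retina and brain, had 238, 256, 208, 129.6 and 111 and 171, 175, 175, 101 and 85.7 CPM. Both were lower in replicates 4 and 5 than in the other 3. Fzd1 and Fzd7 had the opposite order, at 50.8, 27.5, 54.0, 99.6 and 137 and 57.2, 33.5, 63.9, 103 and 141 CPM, highest in replicate 5 and next in replicate 4. The barrier ligands Wnt7a, Wnt7b and Ndp were not expressed. Lef1, a nuclear effector of the pathway, was at 16.6 ± 4.83 CPM per kb.

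Of 36 G protein-coupled receptors 31 were expressed. S1pr1, the receptor for sphingosine 1-phosphate that keeps junctions closed, was at 457, 652, 338, 374 and 229.6 CPM. The adhesion receptors Adgrl4 and Adgrf5 had 133.03 ± 26.2 and 78.0 ± 27.9 CPM per kb and were first and second of the 27 in their family. Ackr1, a chemokine-binding receptor of venules, was uneven at 229, 493, 147, 81.7 and 51.9 CPM. Ackr3, a scavenger of Cxcl12, and the lysophosphatidic acid receptor Lpar1 were lowest in replicate 2 and highest in replicate 4 (322, 281, 374, 500.2 and 441 and 355, 213, 462, 489 and 455 CPM), although with library size alone replicate 5 was highest for both. The adrenomedullin receptor Calcrl was at 126, 143, 148, 47.8 and 52.0 CPM and its partner Ramp2 at 363, 399, 232, 384 and 294. Calcrl was lower in replicates 4 and 5, and Ramp2 was not. Adora2b, F2rl3, P2ry6, Cxcr4 and Oxtr were not expressed by the rule used here.

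All 24 cytokine and immune receptors were expressed, 20 of them above the median of expressed genes per kb. The shared interleukin-6 family chain Il6st was at 1175, 1390.0, 1332, 599 and 653 CPM, and its partners Lifr and Osmr at 55.5 ± 18.02 and 32.8 ± 10.6 CPM per kb. Tnfrsf1a, the main TNF receptor, had 292, 354, 225, 242 and 199 CPM and the interferon-gamma receptor chain Ifngr1 225, 301, 226, 186 and 174.3 CPM. Thrombomodulin (Thbd), an anticoagulant receptor, led this list per kb at 129 ± 20.2. Among integrins, Itgb4 was first at 1349, 857, 1721, 1555 and 1755 CPM, lowest in replicate 2. It pairs with Itga6 (243, 202, 289.8, 299 and 241 CPM), a perineurial marker on the list above. Itgb1, the common beta chain, had 179 ± 22.7 CPM per kb.

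Transcription factors of the SoxF, forkhead and ETS list were led per kb by Meox2, a homeobox factor of capillary endothelium. Meox2 had 447, 403, 535, 479.7 and 413 CPM and was among the even members, with an SD of 11.8% of the mean. The SoxF factors Sox18, Sox17 and Sox7 were at 371, 410.0, 262, 295 and 205, 499, 449.6, 349, 294 and 234 and 156, 188.6, 103, 72.0 and 78.5 CPM, with replicates 1 and 2 highest for each. Epas1, the hypoxia-inducible factor 2 alpha, was at 1114, 1153, 990.3, 481 and 664 CPM and Hif1a at 244, 247, 259, 132.6 and 144 CPM. Of 49 factors of this list 45 were expressed. Ets2, Fli1 and Ets1, of the ETS family that drives endothelial genes, had 59.9 ± 12.5, 41.98 ± 9.02 and 33.2 ± 10.05 CPM per kb. Mef2c ran against most of the list, at 176, 192, 143, 482 and 381 CPM, with replicates 4 and 5 above the other 3. Foxf2, a forkhead factor of brain pericytes, was at 0.279 CPM on average. Foxs1 led the 44 forkhead genes per kb at 28.5 ± 16.6, with Foxc2 and Foxp1 at 24.8 ± 9.59 and 22.9 ± 5.93. Gata2 was the only GATA factor above 10 CPM, at 85.3, 107, 62.6, 41.3 and 45.6 CPM.

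Immediate early genes, which respond to stimulation within minutes, were abundant. The list of 31 Kruppel-like and immediate early genes held 2.18% of counts, 30 of 31 members were expressed and 23 exceeded 100 CPM. Fos had 6969, 8231, 5929, 4779.5 and 4814 CPM, Jun 2337, 2414, 1937, 1388 and 1187, Junb 2071, 2306, 1739, 1269 and 992 and Egr1 2086, 2618, 1602, 1625 and 1493. Replicate 2 was highest for each of these 4, and replicates 4 and 5 were below replicates 1 and 2. Dusp1, a phosphatase that limits the response, and Ier3, another early gene, were at 682 ± 214 and 1053 ± 334 CPM per kb. The labels give the same digestion at 37 C for every library and no undigested sample was analysed, so the part of the dissociation in these levels was not tested. The flow-responsive Klf2 and Klf4 were at 274, 204, 132, 299.8 and 212 and 162, 164, 99.5, 116 and 102 CPM. Klf2 was highest in replicate 4 and lowest in replicate 3, unlike the immediate early genes. Klf6 followed Klf2 in the family per kb at 99.7 ± 34.4, and Klf5 was at 252.2, 125, 278, 488 and 437 CPM, highest in replicates 4 and 5.

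Hox genes, which record position along the body axis, were present at low levels. Of 39 members 20 were expressed. Hoxb7 led at 56.8, 63.3, 52.0, 40.2 and 21.6 CPM, followed by Hoxa7 at 44.7, 48.3, 46.6, 40.7 and 32.1, and Hoxb9 at 37.7, 35.7, 28.2, 26.6 and 21.3. Hoxd9, Hoxd8, Hoxa9 and Hoxa10 lay between 18.5 and 20.6 CPM on average, and Hoxc10 at 12.2 ± 2.65. Hoxb7 had the same order of libraries as the endothelial sum, whereas Hoxc10 was lowest in replicate 2 and highest in replicate 4. The 25 members with a mean of 1 CPM or more ranged from 1.195 CPM (Hoxb2) to 46.8 CPM. The genes of a Hox cluster lie close together, and reads of antisense partners cannot be told apart where counting ignores strand.

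Vessel-type genes of every class were present. All 20 arterial genes were expressed. Mgp, an inhibitor of calcification, led the class per kb at 1004 ± 293, with 574, 734, 412, 866 and 511 CPM, ahead of Clu and of the chemokine Cxcl12 in 5 of 5 libraries per kb. Cxcl12 was high and even by CPM, at 2206, 2238, 1977, 1633 and 1771. The arterial factors Sox17 (values above) and Hey1 (127, 109, 93.0, 69.6 and 54.0 CPM), the kinase Bmx (218, 178, 196, 130.3 and 104 CPM) and the connexin Gja5 (30.7, 39.1, 25.5, 17.1 and 20.4 CPM) were present at lower levels. Gkn3, an arterial marker in mouse brain, was at 61.9, 41.1, 50.3, 31.003 and 17.9 CPM. Unc5b was the lowest arterial member at 0.843 ± 0.206 CPM per kb.

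Venous genes had a median coefficient of variation (CV, the SD as a percent of the mean) of 34.8%, beside 52.1% for lymphatic, 34.5% for pan-endothelial, 33.8% for capillary and 28.9% for arterial genes and 19.3% over all genes with a mean of 8 CPM or more. Nr2f2, the factor of venous fate, had 456, 291, 585, 524 and 488 CPM and was lowest in replicate 2. In several other venous genes replicate 2 was highest and replicates 4 and 5 were lowest, an order whose share over all genes was not counted. Among them were Ackr1 (above), the glycoprotein Lrg1 at 467, 991, 310.3, 253 and 167 CPM, von Willebrand factor (Vwf) at 876, 1055, 595, 363 and 325 CPM and P-selectin (Selp) at 206, 334, 151, 38.99 and 48.6 CPM. Vcam1, an adhesion molecule for leukocytes, was at 253, 247, 171, 80.6 and 88.1 CPM. Aplnr and Ephb4, also highest in replicate 2 and lowest in replicates 4 and 5, were at 249, 337, 224, 190.6 and 136 and 202, 273, 202, 151 and 153.95 CPM. Bst1 and Slc38a5 were the 2 of 15 venous genes not expressed.

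Capillary genes had the highest median of the vessel classes, 73.3 CPM per kb against 45.3 for venous, 42.3 for arterial and 14.3 for lymphatic genes. Without length division the capillary and venous medians were alike, at 200.5 and 200.4 CPM. All 15 were expressed. Fabp4, a fatty acid chaperone of peripheral capillaries, led at 1264, 1764, 1248, 1212 and 567 CPM, with Car4 at 668, 719.9, 512, 572 and 326 and the fatty acid receptor Cd36 at 967, 1702, 1147, 957 and 642. Gpihbp1, which holds lipoprotein lipase on the capillary wall, was at 130.3, 147, 129, 164 and 87.7 CPM and the lipase Lpl itself at 22.4, 57.3, 27.8, 40.5 and 19.9 CPM. Fabp4 was above Car4, Car4 above Cd36 and Cd36 above Meox2 per kb in 5 of 5 libraries. Tcf15, a factor of capillary fatty acid uptake, was at 4.29, 4.26, 2.81, 11.7 and 5.51 CPM.

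Lymphatic genes were present, 11 of 12 expressed and 5 above 100 CPM. Prox1, the factor that defines lymphatic fate, had 16.3, 41.3, 19.7, 4.98 and 8.62 CPM, highest in replicate 2. The hyaluronan receptor Lyve1 had 148, 154.4, 142, 48.2 and 44.6 CPM and the matrix protein Mmrn1 187, 210.1, 269, 52.1 and 70.7 CPM. In replicates 4 and 5, Lyve1, Mmrn1, Prox1 and Flt4 (112, 114, 99.7, 50.2 and 57.7 CPM) were all below replicates 1, 2 and 3. The share of all genes with that order was not counted. Pdpn did not share that order at 169, 151.6, 245, 236 and 184 CPM. Ccl21a had no count in any of the 5 libraries, and reads of near-identical Ccl21 copies can be split or lost.

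Basement membrane genes held 1.08% of counts, 25 of 27 expressed. Sparc and Sparcl1, secreted regulators of matrix, were first at 1329 ± 263 and 784 ± 198 CPM per kb. The vascular collagens Col4a1 and Col4a2 had 648, 872, 752, 478 and 526 and 413, 577, 497, 392 and 438 CPM, and the fibroblast collagen Col3a1 had 767, 1450.1, 1124, 856 and 988 CPM. Col3a1 and Col4a1 were both highest in replicate 2. Among laminins, Lamb2 led at 198 ± 31.8 CPM per kb, with the endothelial Lama4 and Lama5 at 51.2 ± 14.6 and 9.83 ± 1.58. Lama1 was not expressed.

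Of the listed angiocrine and vasoactive signals, which leave out Igfbp6, Igfbp7 was first at 1866, 1667, 1293, 3893 and 2999.8 CPM, with replicates 4 and 5 above the others. Its other relatives Igfbp4, Igfbp5 and Igfbp3 were at 188 ± 39.6, 44.6 ± 10.1 and 37.997 ± 18.7 CPM per kb. The vasoconstrictor peptide gene Edn1 and its processing enzyme Ece1 had 287, 345, 221, 352 and 207 and 757, 958, 617, 357 and 412 CPM, and Nos3, the endothelial nitric oxide synthase, 58.6, 86.7, 53.1, 39.3 and 32.2 CPM. Apln, a tip-cell peptide, was at 31.7, 26.03, 29.1, 30.02 and 30.1 CPM. Stem cell factor (Kitl) ranged from 62.7 in replicate 5 to 338 CPM in replicate 3. Of 43 listed signals 36 were expressed, and the growth factors Hgf, Igf2, Vegfa, Gdnf, Bdnf and Artn were not. Anticoagulant genes were abundant, with Thbd at 528, 567, 502, 382 and 427 CPM, the protein C receptor Procr at 138, 176, 91.3, 118 and 87.9 and tissue plasminogen activator (Plat) at 419, 553, 455, 387 and 259. Tissue factor (F3), which starts clotting and is known from perivascular cells, had 79.6, 56.9, 143, 136 and 158 CPM, lowest in replicate 2.

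Class I antigen presentation genes were abundant. B2m had 3325, 2907, 2466, 2601 and 1840.4 CPM, H2-D1 2499, 2927, 1868, 1703 and 1289 and H2-K1 2126, 2162, 1468, 1309.6 and 973, although reads may be shared between class I genes. Class II RNA was much lower and highest in replicate 1: the invariant chain Cd74 was at 89.0, 24.1, 11.9, 13.03 and 7.80 CPM and H2-Aa at 37.6, 14.7, 9.44, 5.69 and 6.43 CPM. Ptprc in replicate 1 was 0.0373 CPM, the macrophage sum there was second to that in replicate 2, and the median deviation of the expressed macrophage markers was highest there (0.19, -0.05, -0.07, -0.09 and -0.57). Their part in the class II levels was not tested. Interferon-stimulated genes were expressed in 22 of 23 cases, with Ly6a, Ly6c1 and Ly6e at 1164 ± 291, 1050.3 ± 207 and 775 ± 249 CPM per kb after Ifitm3. Ly6a, known as Sca-1, and Ly6c1 also mark endothelium. Of 25 leukocyte adhesion and chemokine genes 20 were expressed. Icam2 was at 171 ± 42.3 CPM per kb, the inducible Icam1 at 215, 315, 188, 118 and 132.9 CPM and E-selectin (Sele) at 58.6, 81.0, 39.1, 7.89 and 18.2 CPM. Cx3cl1, a membrane-bound chemokine, had 166, 245, 149.9, 135 and 94.6 CPM, and Il33, a nuclear alarmin, 203, 159.5, 366.03, 329 and 304 CPM.

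Glycolytic genes were all expressed. Their median CV was 18.1% over 20 members, close to the 19.3% over all genes with a mean of 8 CPM or more. Aldoa led the enzymes at 467 ± 75.9 CPM per kb, with Gapdh at 304 ± 65.0, Tpi1 at 271 ± 59.0, and Ldha and Ldhb at 232 ± 46.4 and 191.5 ± 76.98. Hk1 varied by 4.59% only. Of 19 lipid uptake genes 18 were expressed, with the apolipoprotein Apoe at 1424, 1421, 1254, 1509.6 and 1111 CPM and the phospholipid transfer protein Pltp at 1076, 1089.8, 819, 1072 and 900.1. Cell division genes were low: the 20 genes summed to 284, 365.6, 312, 260.1 and 280.0 CPM, most of it from replication genes such as Pcna (73.0, 87.8, 70.0, 74.8 and 56.2 CPM). The proliferation marker Mki67 was at 2.35, 4.88, 3.66, 2.54 and 5.77 CPM, Top2a at 4.21, 6.52, 5.28, 2.34 and 7.29 CPM, and Aurkb, Ccnb1 and Bub1 were not expressed.

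Spread between libraries was larger than counting error over most of the profile. Over 10234 genes with a mean of 8 CPM or more, the median CV was 19.3%, whereas counting alone would give a median of 3.15%. The CV was under 10% for 922 genes and over 50% for 222. The 10 named genes with the highest CV among those with a mean of 50 CPM or more were Xist (152.5%), Mir6236 (130.1%), Angptl7 (106%), Ackr1 (88.4%), Selp (78.2%), Lrg1 (75.0%), Cntfr (74.5%), Dbp (73.4%), Ptms (72.3%) and Tmem252 (67.3%). Angptl7, a secreted angiopoietin-like protein, was at 41.5, 222, 56.5, 25.3 and 39.6 CPM and Tmem252 at 106, 213, 70.7, 63.6 and 45.04 CPM. Replicate 2 was highest for both, as for Ackr1, Selp and Lrg1. Mir6236 was at 33.6, 15.97, 28.1, 292 and 75.0 CPM, highest in replicate 4. Cntfr, the receptor for ciliary neurotrophic factor, was at 35.1, 16.7, 27.5, 110.2 and 61.7 CPM and the nuclear protein gene Ptms at 77.1, 56.0, 59.0, 250.3 and 119 CPM, with replicate 4 highest and replicate 5 next.

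Among the 10 evenest genes, Cttn, an actin-branching regulator, had 215, 223, 218, 225 and 215 CPM, a CV of 2.04% against 1.34% from counting. Dnm2, the dynamin that cuts vesicles from the membrane, had 249, 266, 253, 259.5 and 252.1 CPM and the succinate dehydrogenase subunit Sdha 445, 449.8, 466, 477 and 465 CPM. Llgl1, Anks1, Tor1b, Fam174a, Fam219b, Pbrm1 and Appbp2 completed the 10, with CVs of 2.34% to 2.90%. For Anks1 the CV of 2.53% lay below the 2.8% that counting error alone gives on average.

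Replicate 2 was highest for the pan-endothelial, arterial, venous, capillary and lymphatic lists by their median deviation. The summed lymphatic level was instead highest in replicate 3, at 1378 CPM against 1138 CPM in replicate 2. As the median over expressed members of log2 CPM relative to each gene's mean, the pan-endothelial list was at 0.24, 0.47, -0.04, -0.44 and -0.64, the venous list at 0.19, 0.55, 0.03, -0.62 and -0.74 and the lymphatic list at 0.15, 0.41, 0.31, -1.16 and -0.66. The capillary list, at -0.03, 0.51, -0.06, 0.00 and -0.59, differed from these in replicate 4. Junction and glycolysis lists stayed within -0.20 to 0.11. Perineurial genes were at -0.08, -0.68, 0.14, 0.27 and 0.09, lowest where the endothelial list was highest. The fibroblast list differed from its sum: its median was -0.29, 0.09, 0.05, 0.10 and 0.01, above 0 in replicate 2, where the sum, with Dcn as its largest part, was lowest. Scaling matters for replicate 5: it had the lowest summed level in 23 of 37 lists with TMM, in 7 with library size alone and in 22 with DESeq2 size factors. The pan-endothelial and capillary sums were lowest in replicate 5 under all 3 scalings, whereas for arterial, venous and immediate early genes the lowest was replicate 5 with TMM and replicate 4 with library size alone. Replicate 2 was highest for all of these under all 3.

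**Figure D4:**
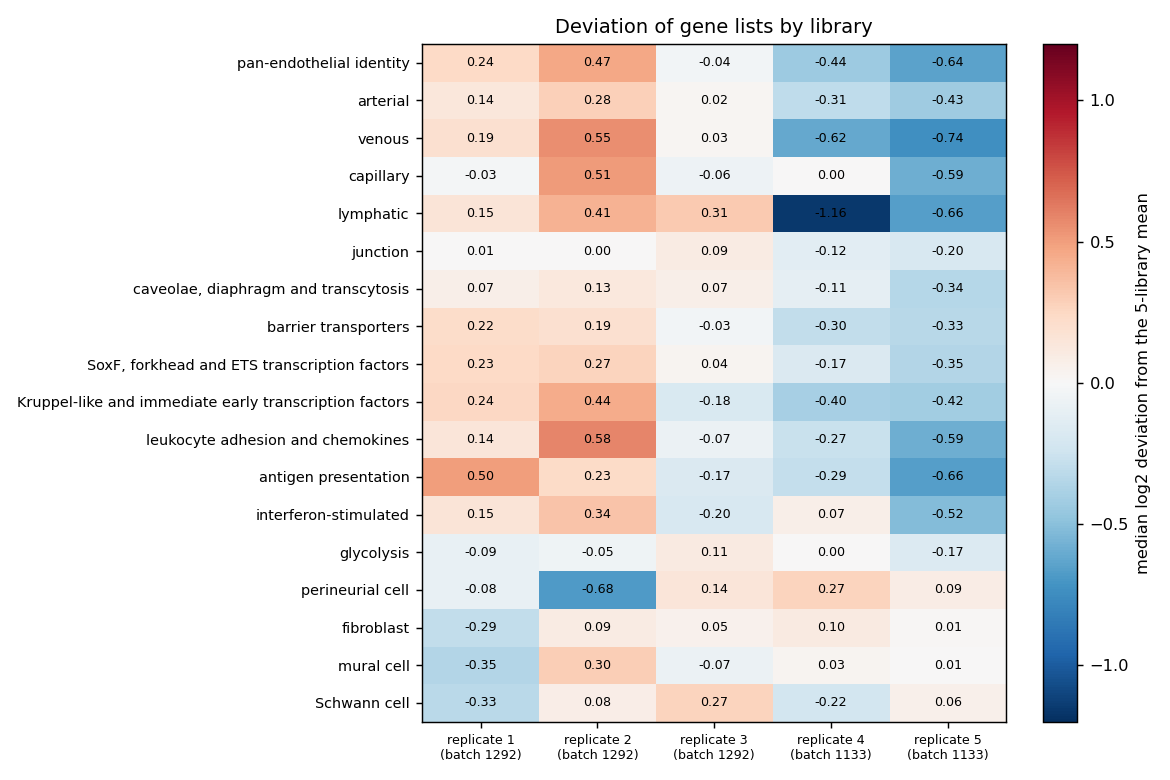
Deviation of 18 gene lists (rows) in the 5 intact libraries (columns): the median over expressed members of log2 of CPM over the gene's mean CPM, red above and blue below the mean. Endothelial and vessel lists are highest in replicate 1 or 2 and mostly lowest in replicates 4 and 5, the perineurial list is lowest in replicate 2 at -0.68, and the largest fall is the lymphatic list in replicate 4 at -1.16.

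Several circadian genes shared their highest libraries, an order that other genes had too, as counted below. The clock is a loop in which Arntl and Clock, or its relative Npas2, bind E-box elements and switch on the Per, Cry, Nr1d and Dbp-family genes, whose products act back on the loop. Dbp, a D-box-binding activator, was at 99.5, 17.5, 29.04, 43.02 and 120.5 CPM. Per3 had 89.2, 32.3, 42.3, 35.5 and 96.3 CPM and Ciart, a repressor of the loop, 28.9, 9.81, 10.01, 7.89 and 27.6 CPM. Replicates 1 and 5 were the highest for each of these, although they belong to different batches. Nr1d1, the repressor of Arntl, followed them at 523, 290.2, 230.5, 179 and 343 CPM, as did Tef at 147, 84.4, 101, 123 and 196 CPM and Bhlhe41 at 36.5, 12.6, 29.6, 24.1 and 55.2 CPM. Arntl was the reverse at 19.7, 64.2, 38.8, 43.6 and 8.10 CPM, lowest in replicates 5 and 1, and Npas2 likewise at 4.77, 12.8, 6.93, 13.7 and 2.96 CPM. With TMM such a low pair was common in the profile, as counted next.

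Of the 16 clock genes, 9 (Dbp, Tef, Hlf, Per2, Per3, Cry2, Nr1d1, Ciart and Bhlhe41) had replicates 1 and 5 as the highest libraries, and Arntl and Npas2 had them as the lowest. Over the 10234 genes with a mean of 8 CPM or more, that order at the top held for 272 (2.66%) and at the bottom for 1273 (12.4%). With TMM the 2 of 16 clock genes lowest in replicates 1 and 5 are thus at the share of all genes. With library size alone the order held for 11 of the 16 at the top, beside 7.54% of genes, and for 2 at the bottom, beside 5.00%. The order was noticed in these values and has no test. Per1 was at 159, 117, 73.8, 79.6 and 93.2 CPM, highest in replicates 1 and 2, and Cry1 was at 17.6, 11.9, 19.2, 17.7 and 15.9 CPM. The labels used here give no time of day for the nerve collection. The glucocorticoid targets Tsc22d3 and Fkbp5 were at 527, 611, 471, 772 and 627 and 29.9, 28.96, 21.7, 31.1 and 37.1 CPM.

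**Figure D5:**
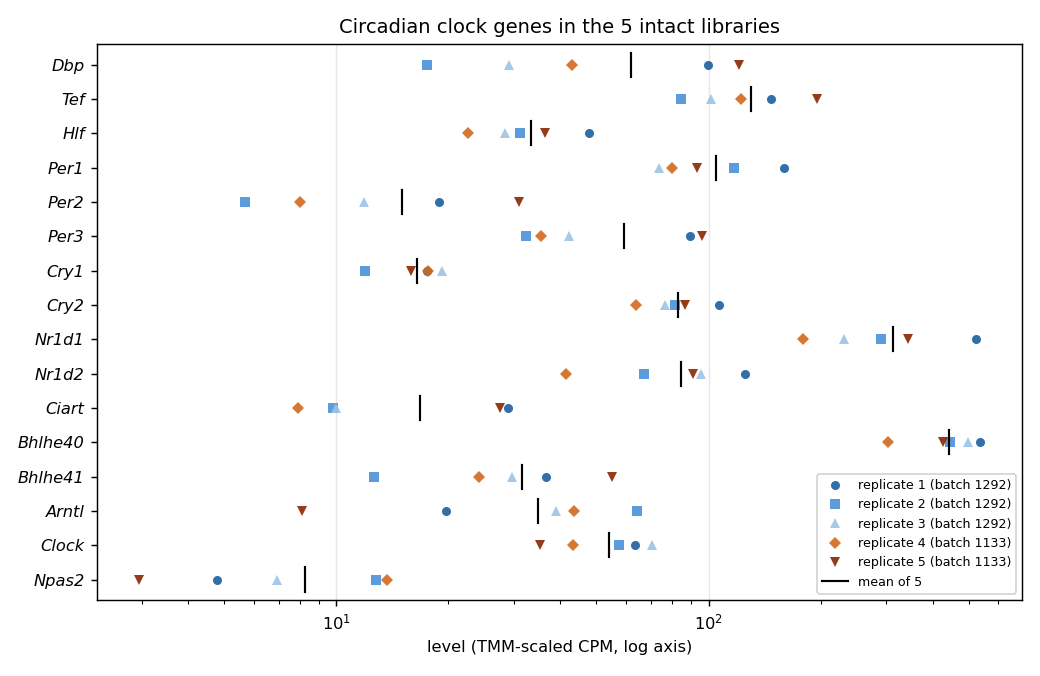
Level of 16 circadian genes in TMM-scaled CPM (log axis), with 1 symbol per intact library and a black bar at the mean. For Dbp, Per2, Per3 and Ciart replicates 1 and 5 lie to the right of the other libraries. For Arntl and Npas2 they lie to the left, as for 12.4% of genes with a mean of 8 CPM or more (5.00% with library size alone).

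Sequences just before the start of 4 clock genes are shown because all 4 shared the libraries in which they were highest and hold a clock motif. RefSeq sequences (build GRCm38.p6) of the 250 bases before the start were matched for 14 of 16 clock genes, all but Per2 and Bhlhe40. The E-box, spelled CACGTG on either strand, was in 5 of the 14, beside 6.02% of 32851 promoters of the same length. The D-box, spelled TTATGTAA or TTACATAA on the reverse strand, was in 1 of the 14, beside 0.819% of promoters. Neither motif overlaps the other in these sequences. Capitals mark the motifs, and each sequence reads 5′ to 3′ toward the gene start. Ciart (chr3:95882229-95882478, minus strand) has 3 E-boxes, beginning at bases 135, 193 and 207 counted from the 5′ end. Bhlhe41 (chr6:145865421-145865670, minus strand) has 1 at base 98. Tef (chr15:81802423-81802672, plus strand) has 1 at base 124. Per3 (chr4:151044666-151044915, minus strand) has 2 D-boxes at bases 46 and 93.
Ciart: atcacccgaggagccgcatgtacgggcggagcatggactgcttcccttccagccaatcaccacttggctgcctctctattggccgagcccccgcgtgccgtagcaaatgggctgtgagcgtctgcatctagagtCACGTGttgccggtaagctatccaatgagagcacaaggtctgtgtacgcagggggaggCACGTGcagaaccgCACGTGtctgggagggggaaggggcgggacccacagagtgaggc
Bhlhe41: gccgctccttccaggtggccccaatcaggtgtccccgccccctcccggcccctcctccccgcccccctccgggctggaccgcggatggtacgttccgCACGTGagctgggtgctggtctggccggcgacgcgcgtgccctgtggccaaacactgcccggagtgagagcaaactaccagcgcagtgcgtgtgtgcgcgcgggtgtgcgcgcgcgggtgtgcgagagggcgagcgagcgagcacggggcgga
Tef: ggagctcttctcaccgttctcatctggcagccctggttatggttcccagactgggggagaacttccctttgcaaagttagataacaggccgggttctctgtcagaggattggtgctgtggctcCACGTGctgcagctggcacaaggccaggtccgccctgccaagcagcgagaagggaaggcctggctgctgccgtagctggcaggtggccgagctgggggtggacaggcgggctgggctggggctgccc
Per3: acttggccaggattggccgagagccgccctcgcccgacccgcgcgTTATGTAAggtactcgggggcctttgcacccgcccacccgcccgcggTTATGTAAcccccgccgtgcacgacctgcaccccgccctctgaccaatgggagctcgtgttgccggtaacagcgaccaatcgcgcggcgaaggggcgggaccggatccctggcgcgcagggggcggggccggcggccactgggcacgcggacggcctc
Per1 and Cry1 also hold 1 E-box each, and neither had replicates 1 and 5 as its highest pair. Dbp, Hlf, Nr1d1 and Cry2, which did, hold neither motif in this window. A match here is a description of letters, not a binding site.

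The labelled batches were compared, 3 libraries of batch 1292 against 2 of batch 1133. In edgeR's quasi-likelihood test 0 of 20055 genes (0%) had a Benjamini-Hochberg adjusted p under 0.05, with 3402 at an unadjusted p under 0.05 and a lowest adjusted p of 0.0625. DESeq2 on the same genes called 1414 (850 higher and 564 lower in batch 1292). With edgeR, 1725 of 47534 genes were called with no filter on low counts, 439 of the 10239 genes with a mean of 8 CPM or more before TMM scaling (a setting added after seeing the data) and 40 without replicate 2, so the count depends on the tool, the filter and that library. Lyve1 had a log2 fold change, batch 1292 over batch 1133, of 1.67 ± 0.18 (SE) at an edgeR adjusted p of 0.0625, and Lepr, the leptin receptor, one of 1.83 ± 0.18 at 0.0625 (161, 184, 168, 48.8 and 46.8 CPM). Hic1, a transcriptional repressor, had -1.46 ± 0.17 at an edgeR adjusted p of 0.0625. Lepr and Hic1 were chosen after their values were seen. Kdr was at 1.198 ± 0.22 (edgeR adjusted p 0.0676) and Mef2c at -1.35 ± 0.21 (edgeR adjusted p 0.0625).

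Batch differences were small for Slc2a1 at 0.14 ± 0.21 (edgeR adjusted p 0.781), Cav1 0.04 ± 0.24 (edgeR adjusted p 0.954) and Meox2 0.04 ± 0.21 (edgeR adjusted p 0.947). A p above the threshold does not show that these levels were alike. The 3 libraries of batch 1292 had endothelial sums of 16895 to 24253 CPM and fibroblast sums of 13562 to 19666, and the 2 of batch 1133 had 10257 to 13510 and 17535 to 23270. The fibroblast sums of the batches overlap and the endothelial sums do not. Such a split was not particular to that list, since the venous sums do not overlap either (4214 to 5490 against 2743 to 2897 CPM). Its share over all genes was not counted. The excess of low genes was in replicate 5 and not in replicate 4. The part of the cell types or of the low genes in the batch differences was not tested.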

How the data were processed

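PolyA RNA-seq counts were deposited as 1 table per experiment, and only the 5 intact libraries of the Tomato table were used. The counts are whole reads per gene as deposited by the authors, with no normalization. Per the submitters' processing notes, the series used Trimmomatic 0.39, STAR 2.5.3a and featureCounts 1.6.4 with mm10/GRCm38, and Cell Ranger 3.0.2 is also listed. Which annotation release was counted, whether strand was used and how multiply mapped reads were handled: not given in the sources used here. Gene coordinates and lengths are those of the deposited table.

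Counts were scaled by TMM in edgeR 4.0.16 (R 4.3.3) over the 5 libraries, and CPM was divided by the deposited length for comparisons between genes given per kb. Spread was the CV of CPM, for genes with a mean CPM of 8 or more (50 or more for named genes), beside the CV from counting alone. Batches were compared by edgeR's quasi-likelihood F test with Benjamini-Hochberg adjustment over all genes tested and a threshold of 0.05, and by DESeq2 1.42.0 as an alternative. The test was also run on simulated data, which held no excess of low genes like that of replicate 5. That run cannot speak for the count of genes called between batches, and its outcome is not given here. Totals of 20027327 to 31434848 counts make counting error small at the levels described. Pairs of libraries differed beyond counting noise (chi-square per degree of freedom 28.6 to 104.7), so none was counted as a repeat deposit.

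Gene lists and members were chosen with earlier results of these data known. The naming rule took, in each list, the first 2 genes, the 4 highest and the lowest per kb, the 15 most abundant by each scale, the 3 highest of each family, and the 10 most and 10 least variable. Other genes named were chosen after their values were seen. Alternatives were other scalings, filters, length division, single batches and leaving out each library.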

Additional observations from a re-analysis of the deposited data

Results flagged for a closer look

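Of 333 sets of 5 library values, 24 (7.21%) had a highest or lowest library whose gap to its neighbour exceeded Dixon's critical value of 0.71, which chance passes in about 1 in 20 sets. Replicate 5 was that library in 12 of them. Its TMM factor of 1.16 was set apart from the others, whereas the share of counts held by the 100 most abundant genes of each library was set apart in replicate 4, at 24.2%.

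Replicate 5 was low for Bsg (1403 CPM) and Eef1a1 (2674 CPM). It was high for the unnamed model Gm10800 (6920.5 CPM) and for 8 genes of a few CPM or less: Marveld3 (5.18), Ptprc (3.59), Sema3e (3.59), Slc38a5 (1.96), Tjp3 (1.74), Oxtr (1.48), Plin1 (0.777) and S100a8 (0.518). In the same library 20229 genes reached 1 CPM, and the part of that in these values was not tested.

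Replicate 4 was high for the protease inhibitor gene Cst3 (4547 CPM), the ferritin chain Fth1 (4578 CPM), the forkhead gene Foxs1 (76.0 CPM) and Mir6236 (292 CPM). Replicate 2 was high for Angptl7 (222 CPM), Acvr2b (5.54 CPM) and Hgf (5.24 CPM). In replicate 1 the class II genes Cd74 (89.0 CPM) and H2-Aa (37.6 CPM) were high and Foxf2 was at 0 CPM. Notch1 was low in replicate 3, at 88.9 CPM.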

How the results depend on the processing

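No paired analysis was possible because all 5 libraries belong to 1 group and their replicate numbers follow accession order. Genes expressed numbered 12987, 10320 at 5 CPM, 15048 by a mean of 1 CPM, 20055 by edgeR's default filter and 13054 to 13171 when each library was left out. The first 100 genes held 20.4% of counts without mitochondrial-genome genes and 21.8% to 22.4% when each library was left out. The median of expressed genes was 27.5 with no length division and 7.75 to 8.10 CPM per kb when each library was left out. The median CV was 23.5% at a mean of 1 CPM or more and 17.3% to 20.7% when each library was left out. Genes called between batches numbered 0 to 40 when each library was left out (40 without replicate 2), 1414 with DESeq2, 1725 with no filter and 439 at a mean of 8 CPM or more before TMM scaling, and the cause was not tested. With replicate 4 left out, the remaining library of batch 1133 is assumed to vary like the others, and likewise for replicate 5. Without replicate 5, Gm10800 averaged 424 CPM, not 1724, and Marveld3 0.0706 CPM, not 1.09. Without replicate 2, Ackr1 averaged 127 CPM, not 200.4, and Angptl7 40.7, not 76.996. Without replicate 1, Cd74 averaged 14.2 CPM, not 29.2, and without replicate 4 Mir6236 averaged 38.2, not 89.0. Of 37 gene lists, 12 moved over 3 places in the order of medians with no length division. Scaling by library size alone or by DESeq2 size factors moved the mean of none of 292 named genes by more than its SD over libraries. The mean over batch 1133 alone lay more than that SD away for 44 of the 292. A mean of 2 of the 5 libraries can exceed that SD only slightly. For the 3 libraries of batch 1292 it cannot exceed it at all, so that count was fixed in advance. These counts are therefore no measure of how firm the levels are. A level near 3 counts cannot be told from 0 at these depths.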
